A study of Oryza sativa with 2 samples.

Results

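Proteinase inhibitor genes of rice leaves are described here, as far as the authors' expression table names them. Members are the rows whose description names a proteinase or protease inhibitor, a Bowman-Birk, Kunitz, trypsin or subtilisin inhibitor, a cystatin or a serpin, together with rows whose symbol starts with RBBI. Rows that mention lipid transfer and short RNA rows (identifiers starting with EPlOSAG) were left out. The rule took 51 of 37645 rows. Of these, 23 reached a mean of at least 1 FPKM (fragments per kilobase of transcript, scaled to the number of mapped fragments) over both libraries and are called measured. The other 28 are accounted for below.

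Leaves came from 2-week-old seedlings of Oryza sativa, cultivar Ilmi, germinated at 28 °C for 4 days and then grown in soil without stress. Nontransgenic plants (NT) gave 1 library with 27683296 mapped read pairs. Transgenic plants labelled PGD1:Roc10 gave 1 library with 21866514 pairs, and carry the homeodomain-leucine zipper factor Roc10 under PGD1, a promoter that the labels call whole-body. The number of plants and of transgenic lines behind a library is not stated in the labels, and no row analysed here is named Roc10. With 1 library per group no difference has a replicate check, and no test was made here. The only p-values given are those the authors deposited.

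Plants make small proteins that lodge in the active site of peptidases and block them. Bowman-Birk, Kunitz and potato-type inhibitors and serpins act mainly on serine peptidases such as trypsin, chymotrypsin and subtilisin, and cystatins act on cysteine peptidases of the papain type. In leaves these inhibitors are best known for hampering the digestive enzymes of insects and the secreted peptidases of pathogens, and many of their genes respond to wounding and to the hormone jasmonate. They also hold back the plant's own peptidases during ageing and cell death.

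RBBI3.3, a Bowman-Birk type inhibitor gene, stood apart from the other members, at 1.80 FPKM in PGD1:Roc10 against 11.6 FPKM in NT. It was the 1 of 23 measured members at least 2-fold lower in PGD1:Roc10, and 0 of 23 were at least 2-fold higher. These calls rest on the difference of log2(FPKM + 1), which understates changes at low levels. Over all 21679 measured rows without short RNAs, 1.02% were 2-fold lower and 2.08% 2-fold higher. The median difference of the 23 members was 0.05 on that scale, against -0.01 over all rows. Of the 23, 13 had the higher value in PGD1:Roc10 (all rows, 48.8%). After the libraries were brought to an equal total FPKM over all rows, short RNAs included, 9 of 23 did. That scaling moves the median of all measured rows by -0.19. With an equal total over the rows without short RNAs, 14 of 23 had the higher value.

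Smaller differences were frequent among the members. At a threshold of 1.5-fold, 5 of 23 members were higher and 6 lower, against 4.9% and 3.65% of all measured rows. Of all measured rows, 88.7% differed by at most 0.5 on the log2 scale, and of the members 52.2% did. The members are few and cover a wide range of levels, and low rows differ more often. Among the 7 members with a mean of at least 100 FPKM, 1 was 1.5-fold higher and 1 lower (all rows at that level, 1.52% and 1.81%). Among the 6 with a mean from 10 to 100 FPKM, 1 was higher and 2 were lower (2.8% and 2.1%), and among the 10 below that, 3 and 3 (7.55% and 5.52%).

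**Figure D1:**
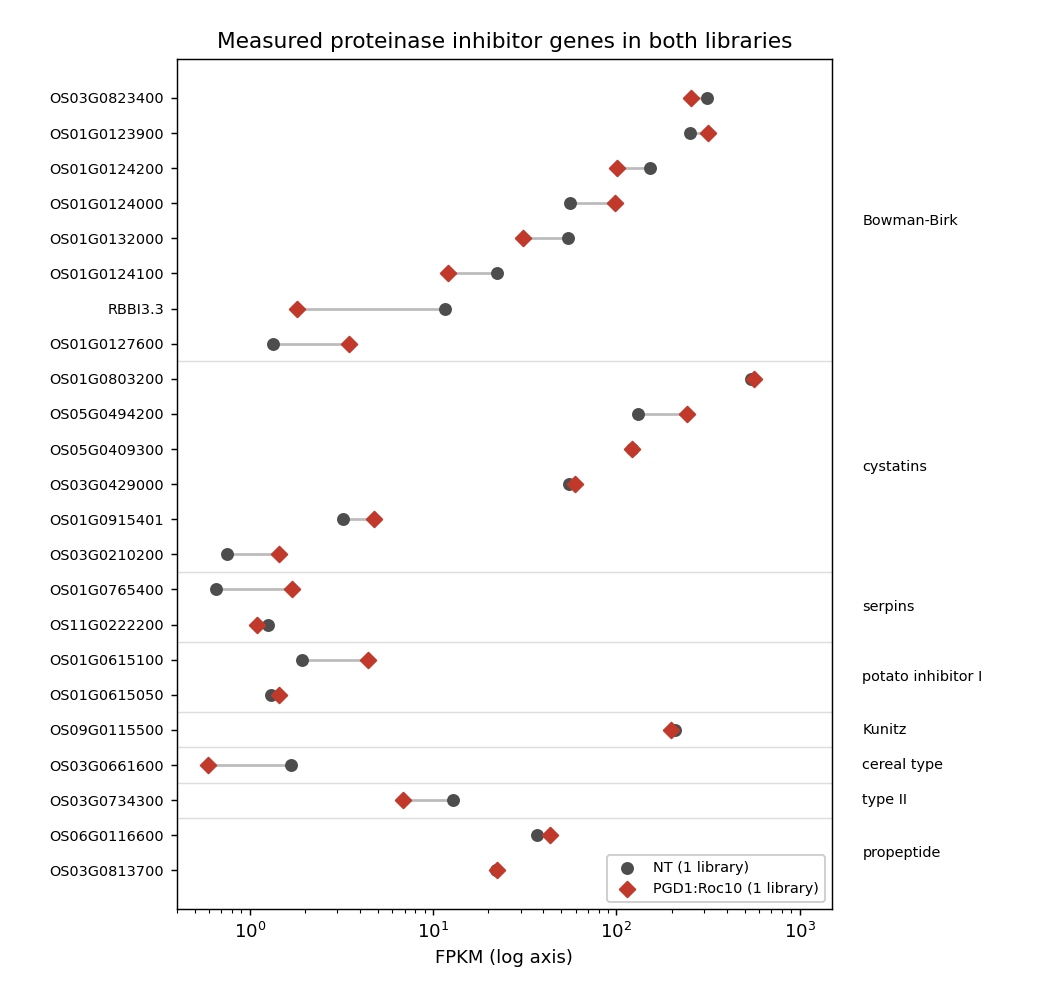
FPKM (log axis) of the 23 measured proteinase inhibitor genes in NT (grey circles) and PGD1:Roc10 (red diamonds), 1 library each, grouped by inhibitor family and ordered by level, with a line joining the values of a gene. RBBI3.3 has the longest line, from 11.6 FPKM in NT to 1.80 FPKM in PGD1:Roc10, and the most abundant member, OS01G0803200, has nearly coinciding points at 544 and 562 FPKM.

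The inhibitors made up a small and nearly equal part of the leaf transcripts in both libraries. Their FPKM summed to 2010 in NT and 2093 in PGD1:Roc10, or 0.234% and 0.25% of the FPKM of all rows without short RNAs. The 7 members with a mean of at least 100 FPKM carried 85.8% of that sum in each library. These were 3 Bowman-Birk genes, 3 cystatins and the Kunitz gene. In RNA from whole leaves, fewer cells that express a gene and less RNA per cell cannot be told apart.

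Bowman-Birk inhibitors, small proteins rich in cysteine that bind trypsin and chymotrypsin, held the widest spread. Of the 10 rows, 8 were measured, 3 of them higher and 5 lower in PGD1:Roc10, a split that held under all 4 other scalings. Their median difference was -0.45 on the log2(FPKM + 1) scale. Their summed FPKM was 865 in NT and 817 in PGD1:Roc10, so the sum moved far less than single genes did. The other 2 rows, OS01G0131900 and OS07G0463800, were listed at 0 in both libraries.

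A run of 5 Bowman-Birk genes lies within 16.5 kb of chromosome 1 (1338240 to 1354767 on IRGSP-1.0), with gaps of 1616 to 4980 bases. The only other rows inside the run are 3 short RNA rows, listed at 0 in both libraries. In file order along the chromosome, OS01G0123900 gave 252.5 FPKM in NT and 314 in PGD1:Roc10. Its neighbour OS01G0124000, described as a trypsin inhibitor, gave 55.7 and 98.3 FPKM. Both had the higher value in PGD1:Roc10, by 0.31 and 0.81 on the log2 scale.

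The next 3 genes of the run had the lower value in PGD1:Roc10. OS01G0124100 gave 22.3 FPKM in NT and 12.02 in PGD1:Roc10. OS01G0124200, also described as a trypsin inhibitor, gave 153 and 101 FPKM. RBBI3.3 (1353704 to 1354767), last in the run, gave 11.6 and 1.80 FPKM, a log2 difference of -2.17. That is the 26th lowest of all 21679 measured rows and a plain ratio of 0.155.

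The summed level of the run was similar in both libraries, at 495 FPKM in NT and 527 in PGD1:Roc10. Within the run, OS01G0123900 supplied 51.0% of the FPKM in NT and 59.6% in PGD1:Roc10, and OS01G0124000 supplied 11.3% and 18.6%. OS01G0124200 supplied 30.9% and 19.1%, and RBBI3.3 only 2.35% and 0.342%. How the authors' counting treated reads that map to more than 1 place is not given in the sources used here. If these related neighbours share stretches of sequence, which was not tested, reads may have been divided between them.

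**Figure D2:**
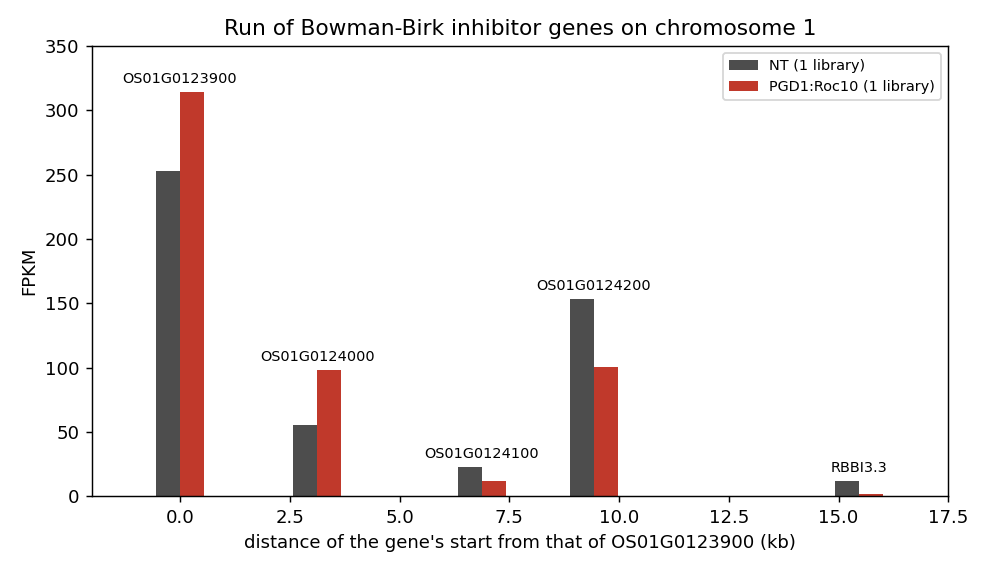
FPKM of the 5 Bowman-Birk genes of the run on chromosome 1 in NT (grey bars) and PGD1:Roc10 (red bars), 1 library each, against the distance of each gene's start from that of the first gene (kb). The first 2 genes are higher in PGD1:Roc10 and the other 3 are lower, with RBBI3.3 at the far end at 1.80 against 11.6 FPKM.

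The 3 other measured Bowman-Birk genes lie outside the run. OS03G0823400 on chromosome 3, described as similar to the trypsin inhibitor WTI, had the highest level of the family in NT, at 314 FPKM against 255 in PGD1:Roc10. OS01G0132000, similar to the wound-induced inhibitor WIP1 known from maize, gave 54.7 FPKM in NT and 31.0 in PGD1:Roc10. Its neighbour OS01G0131900, with the same description and 1579 bases away, is the member listed at 0 in both. OS01G0127600 gave 1.34 and 3.50 FPKM, a plain ratio of 2.60 in the opposite direction to RBBI3.3, but 0.94 on the log2(FPKM + 1) scale.

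Cystatins, which block papain-type cysteine peptidases, were mostly level or somewhat higher in PGD1:Roc10. Of 12 rows, 6 were measured, and 5 of these 6 had the higher value in PGD1:Roc10. That count became 3 of 6 with both libraries at the same total FPKM over all rows, short RNAs included. It was 6 of 6 under 2 other scalings. The cystatins' median difference was 0.27, and their summed FPKM went from 857 in NT to 994 in PGD1:Roc10. None was 2-fold higher or lower.

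OS05G0494200 (chromosome 5, 24280517 to 24281730), described as similar to oryzacystatin-II, accounted for most of that sum's difference. It gave 131 FPKM in NT and 244 in PGD1:Roc10, a plain ratio of 1.86 and a log2 difference of 0.89. By level it ranked 974 among all measured rows in NT and 399 in PGD1:Roc10. The most abundant inhibitor of all, the cysteine protease inhibitor gene OS01G0803200 on chromosome 1, gave 544 and 562 FPKM. The cystatin Hv-CPI3-like OS05G0409300, whose namesake comes from barley, gave 122 and 121 FPKM. The abundant cystatins thus comprised 1 gene that differed by 0.89 and a pair that differed by at most 0.05 on the log2 scale.

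The remaining cystatins were at lower levels. OS03G0429000 gave 55.4 FPKM in NT and 59.6 in PGD1:Roc10. OS01G0915401 gave 3.24 and 4.77 FPKM, and shares its locus with the non-coding row OS01G0915300, so its reads may have been divided. The cystatin6-like OS03G0210200 gave 0.755 and 1.44 FPKM, and its neighbour OS03G0210000, putative cysteine proteinase inhibitor 9, was listed at 0 in NT and gave 0.704 FPKM in PGD1:Roc10. Below the limit, OS04G0350100 gave 0.615 and 0.767 FPKM, and 4 cystatin rows were listed at 0 in both libraries.

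**Figure D3:**
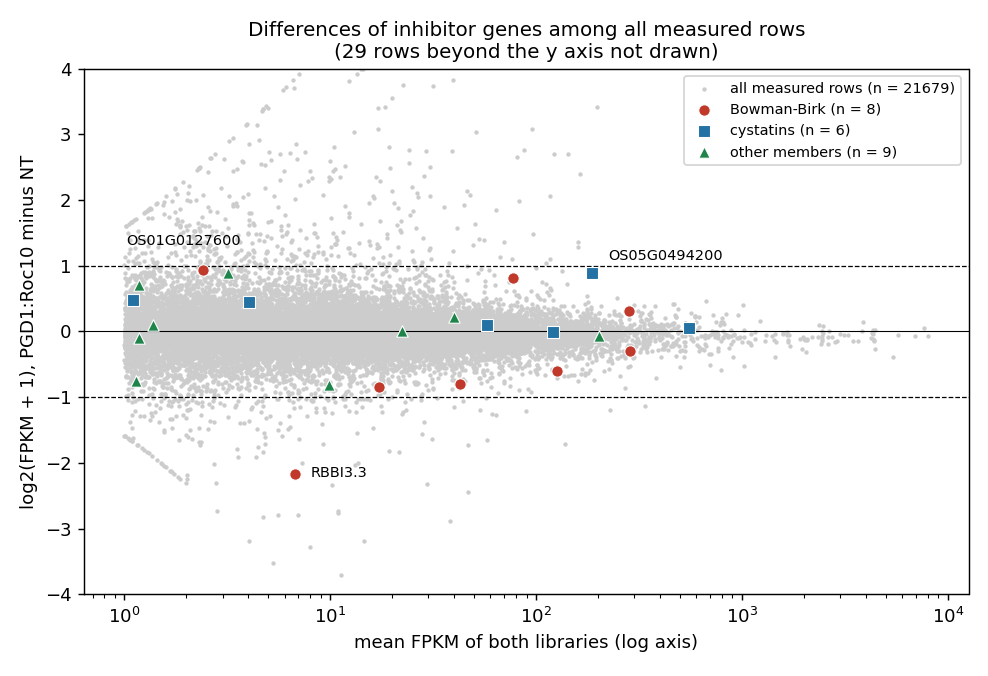
Difference of log2(FPKM + 1), PGD1:Roc10 minus NT, against the mean FPKM of both libraries (log axis) for all 21679 measured rows (grey) and for Bowman-Birk genes (red circles), cystatins (blue squares) and the other members (green triangles). Dashed lines mark 2-fold, and 29 rows beyond a difference of 4 are not drawn. RBBI3.3 is the 1 member outside the dashed lines, and OS05G0494200 lies just inside them at a high level.

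Serpins, which trap serine peptidases in a covalent complex, were mostly listed at 0. That was so for 10 of 13 rows in both libraries. A stretch of chromosome 11 (6392783 to 7435428) holds 10 of the 13, and 8 of those 10 were listed at 0 in both. In that stretch OS11G0222200 gave 1.25 FPKM in NT and 1.09 in PGD1:Roc10, and OS11G0230400 gave 0.12 FPKM in PGD1:Roc10 and was listed at 0 in NT. The serpin OS01G0765400 on chromosome 1 gave 0.656 and 1.69 FPKM, but its locus also holds OS01G0765300, an RNA recognition motif gene with a higher level, so its value is less certain.

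Among the smaller families, the Kunitz-type gene OS09G0115500 was abundant and level. It gave 208 FPKM in NT and 198 in PGD1:Roc10. Potato inhibitor I proteins act on chymotrypsin and subtilisin, and 2 neighbouring rows on chromosome 1 were placed with them. OS01G0615050 gave 1.30 and 1.45 FPKM. OS01G0615100, described as a chymotrypsin-like inhibitor, gave 1.94 and 4.43 FPKM, a plain ratio of 2.29 and a log2(FPKM + 1) difference of 0.89.

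A pair of single rows had the lower value in PGD1:Roc10. OS03G0734300, similar to a type II inhibitor named CEVI57, gave 12.8 FPKM in NT and 6.87 in PGD1:Roc10, or -0.81 on the log2 scale. The gene OS03G0661600, described as similar to an alpha-amylase/trypsin inhibitor (antifungal protein), gave 1.68 and 0.595 FPKM. Both differences are within 2-fold on the log2(FPKM + 1) scale, although the plain ratio of the latter was 0.355. By plain ratios, 3 of the 23 measured members were at least 2-fold higher and 2 at least 2-fold lower, against 3.33% and 2.08% of all measured rows.

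The rule also took 4 rows that are described by a propeptide, the inhibitory stretch with which many peptidases are made. They need not be free inhibitors. OS03G0813700, with a cathepsin propeptide, gave 22.1 FPKM in NT and 22.3 in PGD1:Roc10, and OS06G0116600 gave 37.0 and 43.3 FPKM. OS07G0438600, with a subtilisin propeptide, gave 0.125 FPKM in PGD1:Roc10 and was listed at 0 in NT, and OS04G0559000 was listed at 0 in both. Without these 4 rows, 21 members were measured and the count of 2-fold differences stayed at 0 higher and 1 lower.

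Below the limit, 22 of the 51 rows were listed at 0 in both libraries, 3 were listed at 0 in NT alone and 3 lay above 0 in both. No member was listed at 0 in PGD1:Roc10 alone. Besides those named above, the rows at 0 in both included the Kazal-type OS12G0455000 and the Rgpi9-like OS02G0212100. The alpha-amylase/trypsin inhibitor-like OS07G0222000 and a pair of seed storage and LTP family rows were also at 0 in both. The proteinase inhibitor-like OS12G0548401 gave 0.21 FPKM in NT and 1.04 in PGD1:Roc10. OS03G0385100, of the seed storage and LTP family, which also holds proteins other than peptidase inhibitors, gave 0.41 and 1.06 FPKM. Since a failed estimate can also appear as 0, no fold is given against such a value.

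Many members are neighbours, and some neighbours differed in level while others were alike. Of the 51 rows, 23 lie within 50 kb of another row of their family: 7 Bowman-Birk, 6 cystatin, 8 serpin and 2 potato inhibitor I rows. The Bowman-Birk neighbours OS01G0131900 and OS01G0132000 were at 0 and at 54.7 FPKM in NT. The cystatin neighbours OS01G0915200 and OS01G0915401 were at 0 and at 3.24 FPKM in NT. Alike were the cystatins OS03G0172400 and OS03G0172850, both at 0, and the potato inhibitor I rows, at 1.30 and 1.94 FPKM in NT. The 8 serpin neighbours were at 0 or at most 0.12 FPKM.

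The authors' own test called none of the members. In the authors' deposited table, 27 of the 51 members were tested, and 0 were called significant, against 0.577% of all tested rows without short RNAs. Of the 27, 4 in the authors' deposited table had an unadjusted p below 0.05, against 3.45% of all tested rows. RBBI3.3 had p = 0.0022 and q = 0.218 in the authors' deposited table, and OS05G0494200 had p = 0.00575 and q = 0.437. For OS01G0124000 the authors' deposited table gives p = 0.01995 and q = 0.964, and for OS01G0132000 it gives p = 0.0486 and q = 0.999. That test was run on 1 library per group, so these values do not measure the spread between plants.

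Among 80 measured peptidase genes, 1 was 2-fold higher and 2 were 2-fold lower in PGD1:Roc10 on the log2(FPKM + 1) scale (all measured rows, 2.08% and 1.02%). By plain ratios 3 were 2-fold higher and 2 lower (3.33% and 2.08%). Of the 80, 41 had the higher value (48.8%), with a median difference of 0.01. At an equal total FPKM over all rows, short RNAs included, 20 of 79 did. Their median was then -0.19, where that of all measured rows was -0.20. At an equal total without short RNAs, 44 of 80 did, with a median of 0.03 (all measured rows, 0.02). Papain-type peptidases, the targets of cystatins, had 8 of 13 higher, and their summed FPKM was 1251 in NT and 1334 in PGD1:Roc10. That count was 6 of 13 at an equal total over all rows and 8 of 13 at an equal total without short RNAs. The papain-type medians at these scalings were -0.16 and 0.08. Legumain-type peptidases, vacuolar enzymes that mature other proteins, had 2 measured genes. The asparaginyl endopeptidase-like OS01G0559600 of this type gave 280.3 FPKM in NT and 348 in PGD1:Roc10. None of the measured papain-type and legumain-type genes differed 2-fold on the log2(FPKM + 1) scale, although the cysteine proteinase-like OS03G0752500, at 0.893 and 2.43 FPKM, had a plain ratio of 2.72.

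Peptidases of the serine class were taken in 3 lists. The trypsin-type list shares a measured gene with the papain-type list, and that gene counts in each of them. Of 23 measured subtilisin-type genes 9 had the higher value in PGD1:Roc10 and none differed 2-fold on the log2(FPKM + 1) scale, although the SBT2-like OS03G0242900, at 3.69 FPKM in NT and 7.76 in PGD1:Roc10, had a plain ratio of 2.10. Of 20 serine carboxypeptidases 11 had the higher value. OS11G0461000 gave 3.58 and 0.507 FPKM, and OS01G0215100 gave 0.825 and 3.63 FPKM, the 1 lower and the 1 higher past 2-fold on that scale. Of 23 trypsin-type genes 11 had the higher value, and OS05G0160600, at 6.85 and 2.58 FPKM, was the 1 that was 2-fold lower on it. At an equal total FPKM over all rows, 4 of 23 subtilisin-type, 5 of 20 carboxypeptidase and 4 of 22 trypsin-type genes had the higher value. At an equal total without short RNAs, 11 of 23, 11 of 20 and 12 of 23 did. The jasmonate list took genes described by terms of jasmonate synthesis and response, any lipoxygenase included. Jasmonate acts on many inhibitor genes. Of 22 measured genes 16 were higher (all rows, 48.8%) and 2 were 2-fold higher (2.08%), with a median of 0.30. These 2 were OS10G0132300, at 5.62 FPKM in NT and 26.7 in PGD1:Roc10, and the lipoxygenase-like OS12G0559200, at 38.9 and 101 FPKM. The latter shares its locus with OS12G0559250, so its reads may have been divided. By plain ratios 4 of 22 were 2-fold higher and 0 lower (3.33% and 2.08%). At an equal total FPKM over all rows, short RNAs included, 12 of 21 jasmonate genes were higher. Their median was then 0.10, where that of all measured rows was -0.20. At an equal total without short RNAs, 17 of 22 were higher, with a median of 0.32 (all measured rows, 0.02).

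**Figure D4:**
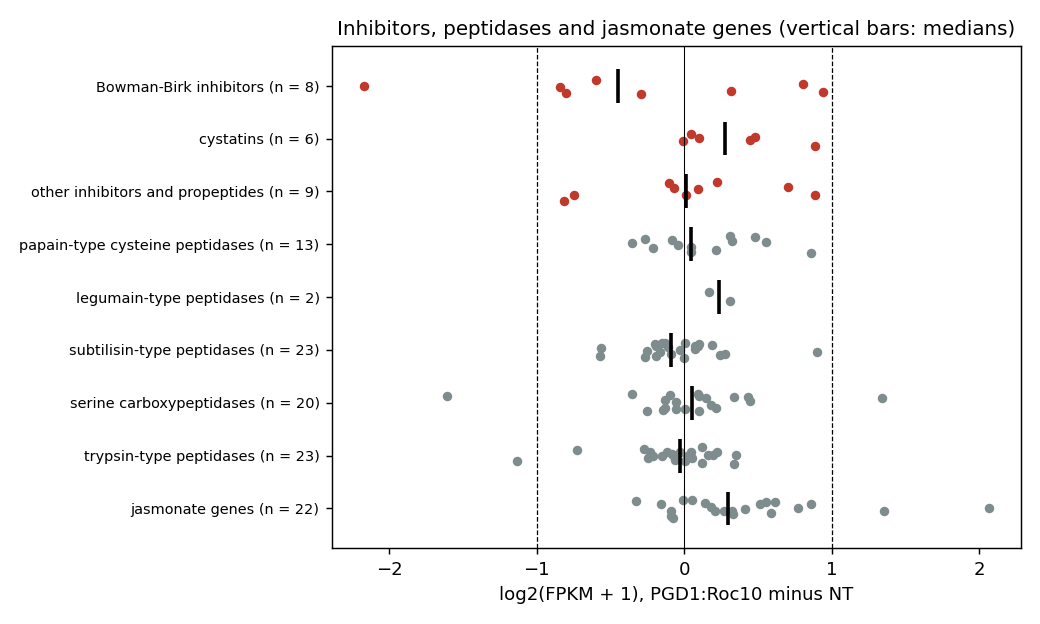
Difference of log2(FPKM + 1), PGD1:Roc10 minus NT, for each measured gene (points) of the inhibitor families (red) and of the peptidase and jasmonate lists (grey), with the median of each list as a vertical bar and 2-fold as dashed lines; vertical scatter within a list is arbitrary. Bowman-Birk genes run from -2.17 to 0.94 around a median of -0.45, and papain-type peptidases lie within 2-fold.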

How the data were processed

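The values are FPKM that the authors deposited for 1 NT and 1 PGD1:Roc10 library. Libraries were strand-specific, per the labels' protocols. Reads were aligned with TopHat 2.0.12 and quantified with Cufflinks and Cuffdiff 2.2.1 on IRGSP-1.0 with Ensembl release 23, per the file headers. The p-values and q-values are those the authors deposited from Cuffdiff, and other numbers from the deposited summary sheet are mapped read pairs. The depth behind a single FPKM is unknown, so no interval is given. Not stated in the sources used here are the strand setting, the treatment of multi-mapped reads, the library normalization and whether locus starts count from 0 or 1.

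Differences are log2(FPKM + 1) in PGD1:Roc10 minus NT. A mean of at least 1 FPKM counts as measured and 2-fold as called, and no test was made. The members and lists were chosen with earlier results of these data known, and 12 of the 51 were placed in a family after their descriptions were seen. All measured members are named, as are members with 1 library at 1 FPKM or more, or with 1 at 0 and the other above 0.5. Up to 3 genes per peptidase or jasmonate list are named by size of difference. Other unmeasured rows named here were chosen after their values were seen. Alternatives were pseudocounts of 0.1, 0.5 and 5, 4 scalings, and other filters, member sets and thresholds. Of the members, 1 was found in the RefSeq gene table, which describes another assembly and was not used further. Python 3.11.15, NumPy 2.4.6, pandas 2.3.3 and matplotlib 3.10.9 were used, and the arithmetic of the 2-fold calls was checked on simulated data with known changes.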

Additional observations from a re-analysis of the deposited data

How the results depend on the processing

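RBBI3.3 stayed at least 2-fold lower under all 7 other pseudocounts and scalings, with differences from -2.62 to -1.29 on the log2 scale. With a pseudocount of 0.1, 3 members were 2-fold higher (OS01G0127600, OS01G0615100 and OS01G0765400) and 2 lower (RBBI3.3 and OS03G0661600). Of all measured rows, 3.2% were then higher and 1.95% lower. With 0.5, 2 members were higher and 1 lower (all rows, 2.62% and 1.39%). With both libraries scaled to the same total FPKM over all rows, 4 were 2-fold lower (RBBI3.3, OS01G0124100, OS01G0132000 and OS03G0734300) and 0 higher. Of all measured rows, 1.58% were then lower and 1.67% higher. The members' median was -0.17 at that scaling, where that of all rows was -0.20. A 1.5-fold threshold gave 5 higher and 6 lower (all rows, 4.9% and 3.65%). The other filters, member sets and scalings and the 4-fold threshold left the counts at 0 higher and 1 lower. Under those filters, sets and scalings, 1.42% to 2.21% of all rows were 2-fold higher and 0.605% to 1.08% lower. At 4-fold the shares were 0.627% and 0.175%. Of the 23 measured members, 5 changed sign under at least 1 scaling, all 5 with a reported difference of at most 0.103 in size. No paired analysis was possible because each group has 1 library. The depth behind single values is unknown, which limits what low values can show.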
